A study of Rattus norvegicus with 6 samples.

Results

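Matrix proteoglycans are secreted proteins that carry sulfated sugar chains called glycosaminoglycans, or belong to a family whose members do. Described here are the genes of 10 of them, picked by name out of the 30001 features of the deposited expression table: Bgn, Dcn, Aspn, Lum, Fmod, Prelp, Ogn, Vcan, Acan and Hspg2. All 10 were found in the table. The first 7 encode small leucine-rich proteoglycans, whose curved repeats bind collagen and set the width and spacing of its fibrils. In that family biglycan (Bgn), decorin (Dcn) and asporin (Aspn) form class I, lumican (Lum), fibromodulin (Fmod) and prolargin (Prelp) class II, and osteoglycin (Ogn) belongs to class III. Versican (Vcan) and aggrecan (Acan) are large chondroitin sulfate proteoglycans that bind hyaluronan, and perlecan (Hspg2) is the large heparan sulfate proteoglycan of basement membranes. In the heart, fibroblasts are known as the main source of decorin, lumican and the other leucine-rich proteins of the matrix between the muscle cells, while basement membranes, with perlecan in them, surround cardiomyocytes, smooth muscle cells and capillaries.

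RNA sequencing was carried out on cultured ventricular myocytes (NRVMs) from Sprague-Dawley rats in the first 3 days after birth, in 6 libraries of 1 batch. The 3 control libraries came from cells given a negative control reagent (NC) and the 3 knockdown libraries from cells given a short hairpin RNA against Decr1 (sh-Decr1), the gene of a mitochondrial enzyme that helps to oxidize unsaturated fatty acids. Both groups had been isolated with the same kit, left to settle for 2 h so that early-attaching cells stayed behind, and kept for 24 h in 10% serum. That step lowers the number of other heart cells but can leave some, and a bulk library does not show which cell a transcript came from. Nothing in the labels ties the libraries to separate cultures or animals, so that the p-values measure the spread between these 6 libraries, which may be technical. The question asked of these genes was whether their transcripts differed with the knockdown of Decr1.

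Values are FPKM, the fragments on a gene divided by its length and by the depth of the library, and levels of different genes can be compared on that scale. The libraries rested on 35290664 to 40108670 fragments. Means are given ± SD over the 3 libraries of a group. Tests were made with limma on log2(FPKM + 1) over the 11975 features whose mean reached 1 FPKM, two-sided, with Benjamini-Hochberg adjustment over all of them and an adjusted p of 0.05 as the threshold. A log2 fold change is knockdown minus control on this log scale, which shrinks the change of genes with low values, whereas fold values and the percentage left are ratios of mean FPKM. Decr1 itself measured 42.8 to 44.3 FPKM across the controls against 1.24 to 3.33 FPKM after knockdown, so the libraries matched their labels (log2 fold change -3.80, SE 0.19, limma adjusted p = 3.23e-08).

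All 10 proteoglycan genes were lower in the knockdown libraries and none was higher. The background was broad: 80.8% of all features tested were called, 32.4% lower and 48.4% higher. For each of the 10 genes every knockdown library lay below every control library, which held for 33% of the features tested. In 8 of the 10 the log2 fold change was -1 or below, against 8% of features, and in 7 it was -2 or below, against 1.94%. Aspn, Fmod and Acan had a knockdown mean under 1 FPKM and passed the filter on low values through their controls. With no filter all 10 were still called lower. The sum of the 10 genes was 2704 ± 37.5 FPKM over the controls and 302 ± 12.5 FPKM after knockdown, so that 11.2% was left. Bgn held most of that sum. The 9 genes without Bgn summed to 458 ± 22.4 FPKM over the controls and 138 ± 6.57 FPKM after knockdown, with 30.0% left.

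Markers of other cell types moved in the same libraries. All 15 fibroblast markers on the list used here fell, among them the collagen genes Col1a1 and Col1a2, the fibulin gene Fbln1 and the periostin gene Postn, and none of the 15 was at 0 in any library. Their summed level was 7600.0 to 8486 FPKM in the controls and 729 to 821 FPKM in the knockdown libraries, or 9.57% of the control mean, with a median log2 fold change of -3.31 against 0.14 for all features tested. All 7 epicardial and mesothelial markers tested, of 8 listed, fell as well, and the list summed to 207 to 224 FPKM by control library and 9.57 to 11.4 FPKM by knockdown library. Of 7 macrophage and leukocyte markers tested 5 fell (7 after either scaling), with sums of 561 to 625 and 341 to 404 FPKM, and all 3 Schwann and neuronal markers tested fell. Smooth muscle and pericyte markers went both ways, with 3 of 10 higher (Acta2, Cnn1 and Mcam) and 5 lower. The lower ones were Kcnj8 with 17.2% left, Abcc9 with 29.8%, Notch3 with 34.2%, Rgs5 with 74.6% and Myh11 with 80.3%. The list summed to 2794 to 3064 and 4629 to 5048 FPKM. Most of that rise was Acta2, which went from 1672 ± 83.3 to 3481 ± 214 FPKM. Cardiomyocyte markers were abundant in both groups, with sums of 19583 to 20258 and of 13722 to 14678 FPKM. The largest of them was the natriuretic peptide gene Nppa, which fell from 11702 ± 276 to 5010 ± 268 FPKM. That drop was larger than the drop of the mean sum, so the sum does not stand for the other markers. Of the 16 cardiomyocyte markers 7 rose and 9 fell on the values as deposited, and 5 rose and 9 fell after median-ratio scaling. The ventricular light chain gene Myl2 fell from 721 ± 35.8 to 45.0 ± 5.06 FPKM while Myl3 rose from 621 ± 7.59 to 1314 ± 8.37 FPKM, the largest rise among the 16. The myosin heavy chain genes Myh7 and Myh6 fell to 13.9% and 39.4% of their control means, and the light chain gene Myl7 to 38.7%. In bulk libraries fewer cells of a type and less RNA per cell cannot be told apart, and the part of fibroblast or mesothelial content in the falls of the proteoglycan genes was not tested.

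**Figure D1:**
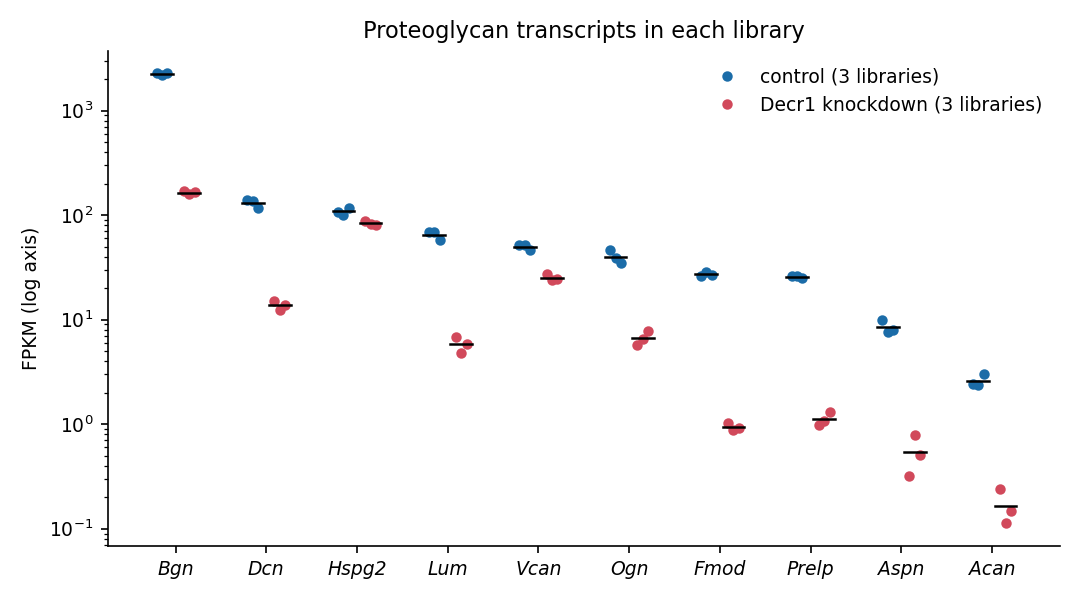
FPKM of each proteoglycan gene in every library, on a log axis, with blue points for the 3 control libraries, red points for the 3 Decr1 knockdown libraries and black bars for the group means. Genes stand in the order of their control means, from Bgn at 2246 FPKM to Acan at 2.61 FPKM, and in none of them do the groups overlap.

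Biglycan was by far the most abundant of these transcripts. Biglycan carries chondroitin or dermatan sulfate chains, binds collagen and, once released from the matrix, is known as a ligand of Toll-like receptors. Bgn measured 2260.5, 2205 and 2272 FPKM across the controls against 170.2, 158 and 165 FPKM after knockdown. The libraries of each group lay close together and the groups were far apart. The mean went from 2246 ± 35.8 to 164 ± 6.21 FPKM, with 7.32% left and a log2 fold change of -3.76 (SE 0.042, limma adjusted p = 1.29e-11). These values rested on 212670 to 221595 reads per control library and on 14162 to 15480 reads per knockdown library.

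Decorin, the closest relative of biglycan, sits along collagen fibrils and binds TGF-beta. Dcn measured 141, 137 and 116 FPKM across the controls against 15.1, 12.3 and 13.7 FPKM after knockdown. Control replicate 3 was the lowest of its group and still far above every knockdown library. Dcn kept 10.4% of its control mean, a log2 fold change of -3.17 (SE 0.085, limma adjusted p = 5.22e-10). The ratio of Bgn to Dcn within a library, which does not depend on library scaling, was 17.2 ± 2.00 in controls and 12.1 ± 0.751 in the knockdown, with no overlap between the groups. Biglycan had thus lost more of its level than decorin, although an exact two-sided permutation test of 3 libraries against 3 can give no p below 0.1.

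Asporin, which lacks the sugar chain of its class I relatives and is known as a binder of collagen and an inhibitor of TGF-beta, was much scarcer. Aspn measured 9.99, 7.59 and 8.005 FPKM across the controls against 0.321, 0.787 and 0.505 FPKM after knockdown. The values after knockdown rested on 31, 76 and 46 reads, and the library with most Aspn held 2.45 times the level of the one with least. The mean went from 8.53 ± 1.29 to 0.538 ± 0.235 FPKM, with a log2 fold change of -2.63 (SE 0.13, limma adjusted p = 2.74e-08), or -3.81 with a pseudocount of 0.1. The percentage left was 3.76% to 9.22% over the knockdown libraries, so its place among the other genes is loose. By the RefSeq annotation of the GRCr8 assembly, Aspn and Ogn both overlap the gene Cenpp, which stood at 0.709 to 1.21 FPKM in controls and at 0.427 to 0.624 FPKM in the knockdown. Since no strand setting is given in the sources used here, reads of Cenpp and of the last remaining Aspn cannot be told apart. Dcn, Fmod and Prelp each overlap a long non-coding RNA gene, none of which was above 0.361 FPKM in any library.

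The steepest falls in ratio were those of Fmod and Prelp, both of class II. Fibromodulin is a keratan sulfate proteoglycan that binds collagen and guides its crosslinking. Fmod measured 26.0, 28.5 and 26.7 FPKM across the controls against 1.03, 0.872 and 0.924 FPKM after knockdown. It was 28.8-fold lower, with 3.47% left, for a log2 fold change of -3.86 (SE 0.065, limma adjusted p = 5.36e-11). Prolargin, which binds heparan sulfate of basement membranes and collagen of the connective tissue, matched it closely in level. Prelp measured 25.9, 26.0 and 25.1 FPKM across the controls against 0.992, 1.06 and 1.30 FPKM after knockdown, or 22.9-fold lower with a log2 fold change of -3.65 (SE 0.071, limma adjusted p = 8.73e-11). The ratio of Fmod to Prelp was 1.06 ± 0.045 in controls and 0.854 ± 0.166 in the knockdown, and here the groups overlapped. The reads left in the knockdown were 96 to 113 per library for Fmod and 154 to 191 for Prelp.

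Lumican, the third class II gene, regulates fibril spacing and is best known for the transparency of the cornea. Lum measured 69.5, 68.3 and 57.2 FPKM across the controls against 6.81, 4.84 and 5.90 FPKM after knockdown. It kept 9.003% of its control mean, a log2 fold change of -3.27 (SE 0.11, limma adjusted p = 2.04e-09). Within each group its values went along with those of Dcn, with control replicate 3 low in both genes. The ratio of Dcn to Lum was 2.02 ± 0.015 over the controls and 2.36 ± 0.172 over the knockdown libraries, with no overlap between the groups. Against Fmod of its own class Lum was relatively better kept, with a Lum to Fmod ratio of 2.40 ± 0.264 in controls and 6.19 ± 0.566 in the knockdown, and no overlap between the groups.

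Osteoglycin, also called mimecan, was the leucine-rich gene with most of its level left. Ogn measured 46.02, 39.1 and 35.2 FPKM across the controls against 5.67, 6.49 and 7.87 FPKM after knockdown. Both groups were uneven but clearly apart. Ogn was 6.01-fold lower and kept 16.6% of its control mean (log2 fold change -2.42, SE 0.11, limma adjusted p = 2.6e-08), while the other 6 leucine-rich genes kept between 3.47% and 10.4%. Together the 7 leucine-rich genes summed to 2543 ± 33.7 FPKM over the controls and 193 ± 8.12 FPKM after knockdown, with 7.59% left.

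Versican, which is known from mice to be needed for the cushions of the embryonic heart and is abundant in young and remodelling tissue, fell far less. Vcan measured 51.4, 52.1 and 46.4 FPKM across the controls against 27.4, 23.8 and 24.3 FPKM after knockdown. The groups did not overlap, and 50.4% of the control mean was left, or 47.7% to 54.7% by library. Its log2 fold change was -0.96 (SE 0.066, limma adjusted p = 3.56e-07). Aggrecan, the main proteoglycan of cartilage and a component of heart valves, was the scarcest of the 10 transcripts. Acan measured 2.42, 2.37 and 3.05 FPKM across the controls against 0.239, 0.113 and 0.147 FPKM after knockdown, where 74, 35 and 43 reads were left. Its log2 fold change of -1.63 (SE 0.096, limma adjusted p = 1.19e-07) is shrunk by the pseudocount and came to -3.37 with a pseudocount of 0.1. In ratio Acan was 15.7-fold lower with 6.37% left, close to Bgn and unlike Vcan. The ratio of Vcan to Acan was 15.2 to 21.97 in the controls and 114 to 211 in the knockdown libraries, so the 2 hyaluronan-binding members differed in how much they lost.

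Perlecan changed least. Hspg2 measured 108, 99.5 and 117 FPKM across the controls against 87.6, 82.4 and 80.2 FPKM after knockdown. The gap between the lowest control and the highest knockdown library was smaller than the range of the controls, but there was no overlap. Hspg2 kept 77.1% of its control mean and had a log2 fold change of -0.37 (SE 0.062, limma adjusted p = 0.000306), and 23.5% of all features tested had a fold change that low or lower. After median-ratio scaling its log2 fold change was -0.55. With 41633 to 69179 reads per library, depth did not limit this value. None of the 15 fibroblast markers kept as much of its level as Hspg2. Only 1 of them, the lysyl oxidase gene Lox, kept more than Vcan, while 5 of the 15 kept less than Bgn and 11 less than Ogn.

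**Figure D2:**
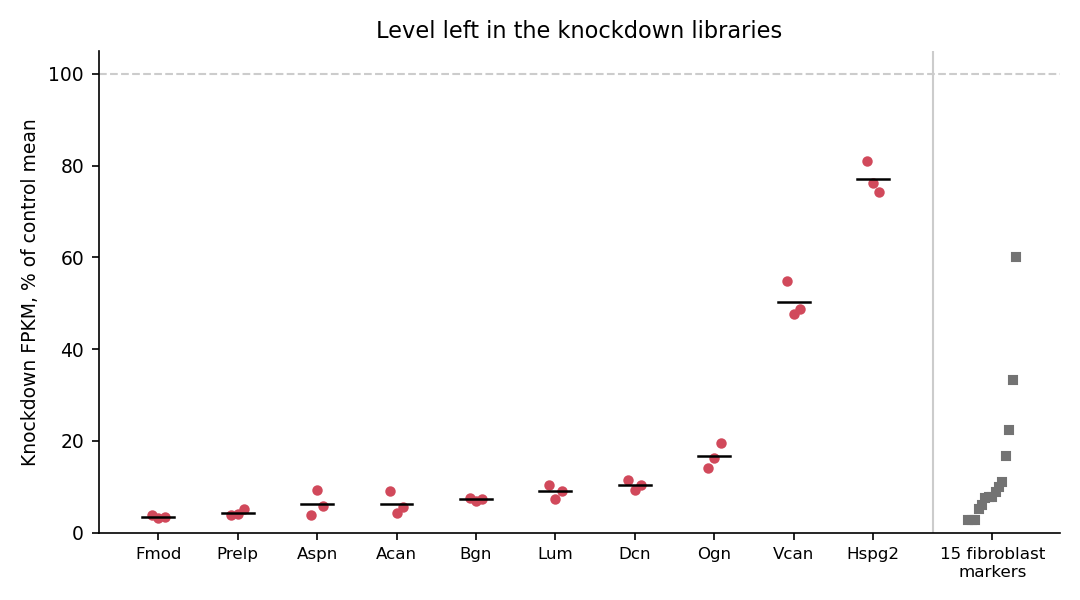
Level left in the knockdown libraries as a percentage of the control mean, with red points for the 3 knockdown libraries, black bars for their mean and grey squares for the means of the 15 fibroblast markers. Fmod, Prelp, Aspn, Acan, Bgn, Lum, Dcn and Ogn lie between 3.47% and 16.6%, Vcan at 50.4% and Hspg2 at 77.1%, and the fibroblast markers run from 2.82% to 60.1%.

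The order of the levels changed between the groups. In the controls it ran Bgn, Dcn, Hspg2, Lum, Vcan, Ogn, Fmod, Prelp, Aspn and Acan. Of the neighbours in this order, Dcn and Hspg2 overlapped over the control libraries, and Vcan and Ogn as well as Fmod and Prelp were separated by less than 1 FPKM at their nearest libraries. In the knockdown libraries the order was Bgn, Hspg2, Vcan, Dcn, Ogn, Lum, Prelp, Fmod, Aspn and Acan, with overlap between Ogn and Lum and between Prelp and Fmod. Biglycan made up 83.1% ± 0.770 of the summed FPKM of the 10 genes in controls and 54.4% ± 0.527 in the knockdown. The share of perlecan went from 4.00% ± 0.305 to 27.6% ± 0.814 and that of versican from 1.85% ± 0.123 to 8.33% ± 0.304. The share of decorin was 4.85% ± 0.487 and 4.53% ± 0.268, with overlapping libraries. The ratio of Bgn to Hspg2 in FPKM was 20.8 ± 1.3995 in the controls and 1.97 ± 0.075 in the knockdown libraries.

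**Figure D3:**
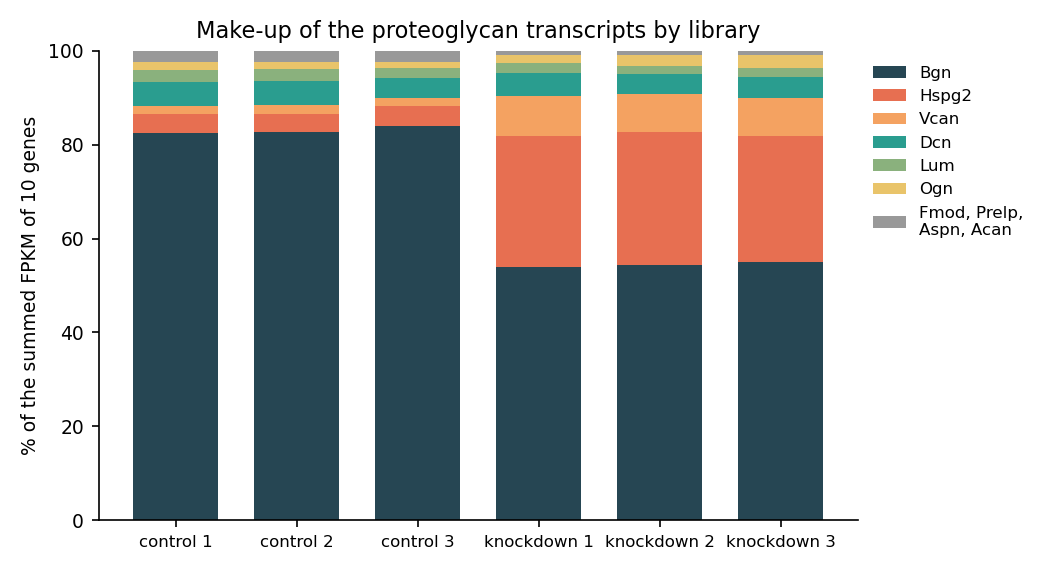
Share of each gene in the summed FPKM of the 10 proteoglycan genes, in percent, as a stacked bar for each of the 6 libraries, with Fmod, Prelp, Aspn and Acan drawn as 1 block. Bgn takes 82.5% to 83.9% of the control bars and 54.0% to 55.0% of the knockdown bars, and Hspg2 3.73% to 4.33% and 26.8% to 28.4%.

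Most of the leucine-rich genes lie side by side in the genome. By the order of protein-coding genes in RefSeq GRCr8, Dcn and Lum are followed by Kera and Epyc, Prelp and Fmod are preceded by Optc, and Ogn and Aspn enclose Omd. None of these 4 other genes reached the filter for a test. Omd, which encodes osteomodulin, was at 1.17 ± 0.131 FPKM over the controls and 0.087 ± 0.065 FPKM after knockdown, with 78 to 95 reads per control library and 1 to 9 per knockdown library. Epyc, the gene of epiphycan, was at 0.399 ± 0.038 and 0.089 ± 0.085 FPKM, with 33 to 39 and 1 to 14 reads. Optc, the gene of opticin, was at 0.551 ± 0.106 and 0.078 ± 0.015 FPKM, with 86 to 124 and 13 to 17 reads. In each of these 3 genes the groups did not overlap, while Kera was listed at 0 in all 6 libraries. For genes below the filter no share of features without overlap was worked out. Of the neighbours among the 10 genes, Dcn kept 10.4% of its level and Lum 9.003%, and Fmod kept 3.47% and Prelp 4.37%. Ogn kept 16.6% and Aspn, with few reads left, 6.30%, and the ratio of Ogn to Aspn was 4.39 to 5.15 in the controls and 8.24 to 17.7 in the knockdown libraries.

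Promoter sequences were taken from RefSeq, assembly GRCr8, as the 250 bases before and 50 after each annotated start. The table held 7 of the 10 genes, with 2 starts for Vcan. Not in it were Bgn, Dcn and Prelp. Printed are the gene with the steepest fall (Fmod, chr13:48045317-48045616, plus strand), the best-kept leucine-rich gene (Ogn, chr17:15258946-15259245, minus strand), and the 2 genes that fell least, Vcan (first start, chr2:22595906-22596205, minus strand) and Hspg2 (chr5:154960596-154960895, plus strand). They read 5′ to 3′, with capitals on either strand for the TATA box TATAAA, for the GC box core GGGCGG, for the AP-1 motif TGANTCA and for the TEAD core letters GGAATG.
Fmod: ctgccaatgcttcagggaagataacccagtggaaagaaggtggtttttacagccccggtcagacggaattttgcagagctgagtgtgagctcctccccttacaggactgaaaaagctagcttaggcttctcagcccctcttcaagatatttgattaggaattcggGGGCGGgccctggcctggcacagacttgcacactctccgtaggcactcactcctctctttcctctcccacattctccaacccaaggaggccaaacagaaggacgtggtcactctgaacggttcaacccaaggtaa
Ogn: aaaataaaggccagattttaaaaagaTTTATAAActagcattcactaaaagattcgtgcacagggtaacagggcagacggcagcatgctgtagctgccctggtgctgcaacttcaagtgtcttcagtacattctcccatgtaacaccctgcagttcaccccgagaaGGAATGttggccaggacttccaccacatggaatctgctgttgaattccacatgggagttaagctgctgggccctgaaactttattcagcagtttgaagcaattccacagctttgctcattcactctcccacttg
Vcan: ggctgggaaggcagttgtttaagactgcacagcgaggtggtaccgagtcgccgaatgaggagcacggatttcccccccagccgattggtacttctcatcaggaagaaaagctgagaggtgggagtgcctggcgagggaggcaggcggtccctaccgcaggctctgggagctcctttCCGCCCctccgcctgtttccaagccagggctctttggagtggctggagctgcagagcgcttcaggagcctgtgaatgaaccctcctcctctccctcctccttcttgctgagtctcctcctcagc
Hspg2: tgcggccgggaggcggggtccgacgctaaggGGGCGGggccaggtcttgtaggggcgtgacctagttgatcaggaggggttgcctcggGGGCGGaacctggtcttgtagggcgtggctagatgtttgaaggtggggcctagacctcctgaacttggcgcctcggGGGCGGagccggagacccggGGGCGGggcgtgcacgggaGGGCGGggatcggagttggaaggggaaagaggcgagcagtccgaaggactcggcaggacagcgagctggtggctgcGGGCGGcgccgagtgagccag
The Hspg2 promoter held 6 matches to GGGCGG, at 70% G and C. Fmod and Vcan held 1 match each at 52.7% and 61% G and C, and Ogn none at 46%. Acan, not printed, was richest in G and C at 73%, with 3 matches. Lum and Aspn had 50.7% and 39% and none, beside a median of 51.7% over 33469 promoters of 300 bases. GGGCGG was found in 4 of the 7 genes and in 33.1% of all promoters. TATAAA was found in Ogn alone, in 2 overlapping copies on opposite strands, and in 14.2% of all. GGAATG was in Ogn and Acan and in 14.2% of all. TGANTCA was in none of the 7 and in 7.33% of all. The E-box letters CANNTG, not in capitals above, were in 4 of the 7 and in 72.1% of all. These matches are letters in a window and are not evidence of binding.

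Other proteoglycans did not follow 1 direction. The counts of this and the following lists stand beside 48.4% of all features tested called higher and 32.4% called lower. Of 11 further leucine-rich genes only Podn and Tsku reached the filter, and both fell. Of the 9 that were not tested, Podnl1 and Ecm2 lay below the controls in every knockdown library, like the cluster neighbours Omd, Epyc and Optc. Chadl and Nyx lay above them, Chadl with 2 to 4 reads per control library and 54 to 80 per knockdown library and Nyx, the gene of nyctalopin, with 2 to 3 and 26 to 38 reads. Chad overlapped between the groups at 0 to 6 reads, and Kera was at 0. The 33% of features that lay wholly below the controls were tested features, and no such share was worked out for genes this low. Podn, which encodes podocan, went from 20.7 ± 0.532 to 5.13 ± 0.383 FPKM, and Tsku, the gene of tsukushi, from 20.7 ± 1.399 to 14.5 ± 0.087 FPKM. Of 12 tested genes for basement membrane and other secreted proteoglycans and their partners, 8 rose and 4 fell, and the median log2 fold change was 0.78. Col18a1, which like Hspg2 encodes a heparan sulfate proteoglycan of basement membranes, rose from 71.8 ± 4.16 to 221 ± 6.74 FPKM (limma adjusted p = 1.61e-09). Its relative Col15a1 fell from 57.7 ± 3.99 to 2.06 ± 0.269 FPKM (limma adjusted p = 6.7e-11). The nidogens, which link perlecan to laminin and collagen IV, moved in opposite directions. Nid1 fell from 187 ± 4.42 to 26.4 ± 1.32 FPKM, and Nid2 rose from 12.6 ± 0.293 to 47.4 ± 1.01 FPKM. In the group that includes the other hyaluronan-binding proteoglycans and the link proteins, 1 of 6 genes was tested. This was Hapln3, which rose from 0.788 ± 0.035 to 1.24 ± 0.257 FPKM and passed the filter only through the knockdown libraries. Of those not tested, Hapln1 and Hapln4 lay below the controls in every knockdown library. Hapln1 had 17 to 62 reads per control library and 1 to 3 per knockdown library, and Hapln4 had 44 to 68 and 13 to 33. In Bcan, Ncan and Hapln2 the groups overlapped.

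At the cell surface, 9 of 12 tested proteoglycan genes fell and 3 rose. Glypican 3 (Gpc3) fell from 78.9 ± 8.03 to 7.64 ± 0.331 FPKM, syndecan 2 (Sdc2) from 87.8 ± 2.00 to 30.9 ± 1.53 FPKM and syndecan 4 (Sdc4) from 70.3 ± 2.61 to 26.1 ± 1.80 FPKM. The 3 that rose were Gpc1, Cd44 and Cspg4, the last of which encodes the NG2 proteoglycan of pericytes and rose from 7.61 ± 0.595 to 25.5 ± 1.70 FPKM. Neither median-ratio scaling nor quantile normalization changed these counts. Fibroblast markers, with their median log2 fold change of -3.31, were lower in the same libraries.

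Genes for the synthesis of the sugar chains moved in both directions. For the tetrasaccharide linker and its precursors, 9 of 13 genes fell, 3 rose and 1 did not pass, with a median log2 fold change of -0.32. Ugdh, which makes UDP-glucuronic acid, fell from 71.7 ± 2.60 to 31.5 ± 2.35 FPKM, and Xylt2, a xylosyltransferase that starts the chain, from 15.6 ± 0.542 to 9.43 ± 0.751 FPKM. Its relative Xylt1 and the UDP-xylose synthase gene Uxs1 fell too, Uxs1 from 32.4 ± 1.15 to 20.8 ± 0.476 FPKM. After median-ratio scaling 10 fell and 1 rose, and B3gat3 and Papss1 were no longer called higher. The gene still higher was Pxylp1, which encodes a phosphatase of the linker xylose and rose from 4.50 ± 0.427 to 6.78 ± 0.311 FPKM. Of 14 genes for chondroitin and dermatan sulfate, 7 rose, 4 fell and 3 did not pass. Among these calls 63.6% were higher, near the 59.9% over all features. After median-ratio scaling 5 rose and 5 fell, or 50% higher among the calls against 48.7% over all features. Dse, the epimerase that turns chondroitin into dermatan sulfate, fell from 11.3 ± 0.144 to 2.10 ± 0.184 FPKM (limma adjusted p = 2.64e-09). Chst14, the sulfotransferase specific to dermatan sulfate, fell from 12.7 ± 1.30 to 5.78 ± 0.478 FPKM, and Chst11, a chondroitin 4-O-sulfotransferase gene, from 7.29 ± 0.773 to 3.19 ± 0.216 FPKM, whereas Dsel, another epimerase, rose from 3.02 ± 0.306 to 6.57 ± 0.613 FPKM.

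Heparan sulfate genes were lower in 12 of 17 cases, with 3 higher and 2 not past the threshold, and these counts did not move under either scaling. The copolymerase subunits Ext1 and Ext2 fell, Ext1 from 44.9 ± 0.226 to 18.8 ± 0.516 FPKM and Ext2 from 26.8 ± 1.38 to 12.1 ± 0.552 FPKM. Of the 6-O-sulfotransferase genes, Hs6st1 fell from 40.1 ± 1.52 to 8.89 ± 0.444 FPKM and Hs6st2 from 21.9 ± 0.595 to 8.22 ± 1.12 FPKM. The scarcer Hs6st3 rose from 0.273 ± 0.032 to 3.83 ± 0.078 FPKM and passed the filter only through the knockdown libraries. Sulf2, a sulfatase that edits finished chains, rose from 85.1 ± 4.60 to 108 ± 3.09 FPKM, and Extl1, of the exostosin family, from 1.36 ± 0.264 to 3.52 ± 0.080 FPKM. Of 7 tested genes on the list for keratan sulfate, the chain of Lum and Fmod, 4 fell and 3 rose. Chst2 fell from 15.2 ± 0.725 to 1.57 ± 0.078 FPKM and B4galt4 from 5.13 ± 0.363 to 0.779 ± 0.097 FPKM. B3gnt7, which extends the chain, rose from 2.30 ± 0.291 to 5.96 ± 0.214 FPKM, as did the galactosyltransferase gene B4galt1, from 29.1 ± 1.97 to 49.4 ± 1.70 FPKM. The third to rise was the nucleotide sugar transporter gene Slc35d1, from 3.02 ± 0.077 to 4.32 ± 0.212 FPKM. It is on the list but is not specific to keratan sulfate.

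Proteases that cut proteoglycans or process their precursors fell in 7 of 13 cases, rose in 4 and did not pass the threshold in 2. Adamts5, an aggrecanase that also cleaves versican, fell from 28.5 ± 2.45 to 3.36 ± 0.186 FPKM, and Adamts1, which cleaves the same substrates, rose from 42.5 ± 2.11 to 133 ± 3.88 FPKM (limma adjusted p = 1.18e-09). The gelatinase gene Mmp2 fell from 659 ± 18.9 to 104 ± 4.63 FPKM and Mmp14, the gene of its membrane-bound activator, from 357 ± 1.71 to 89.0 ± 2.75 FPKM. Cartilage and valve matrix genes, looked at beside Acan, showed no common direction. Of 17 listed 7 were tested, with 2 higher (Comp and Scx), 2 lower (Sox9 and Matn4) and 3 not past the threshold. Comp passed the filter only through the knockdown libraries and Matn4 only through the controls. Of those not tested, the cartilage collagen gene Col2a1 was listed at 0 in all 3 controls and had 13 to 20 reads per knockdown library. Col9a2 had 23 to 35 reads per control library and 0 to 2 per knockdown library. Sox6 lay above the controls in every knockdown library and Sox5 below, and in the others the groups overlapped. Endothelial markers, whose cells also make perlecan, were low in both groups, with sums of 21.99 to 23.1 FPKM in controls and 24.3 to 26.6 FPKM in the knockdown. Of the 11 listed 7 were tested. Kdr, Flt1 and Esam rose, Tie1, Tek and Egfl7 fell and 1 did not pass, and Esam was no longer called after either scaling. Among those not tested, Pecam1 went from 1.05 ± 0.142 to 0.286 ± 0.040 FPKM and Emcn from 0.336 ± 0.027 to 0.113 ± 0.098 FPKM. In both the groups did not overlap, while in Vwf and Cldn5 they did.

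**Figure D4:**
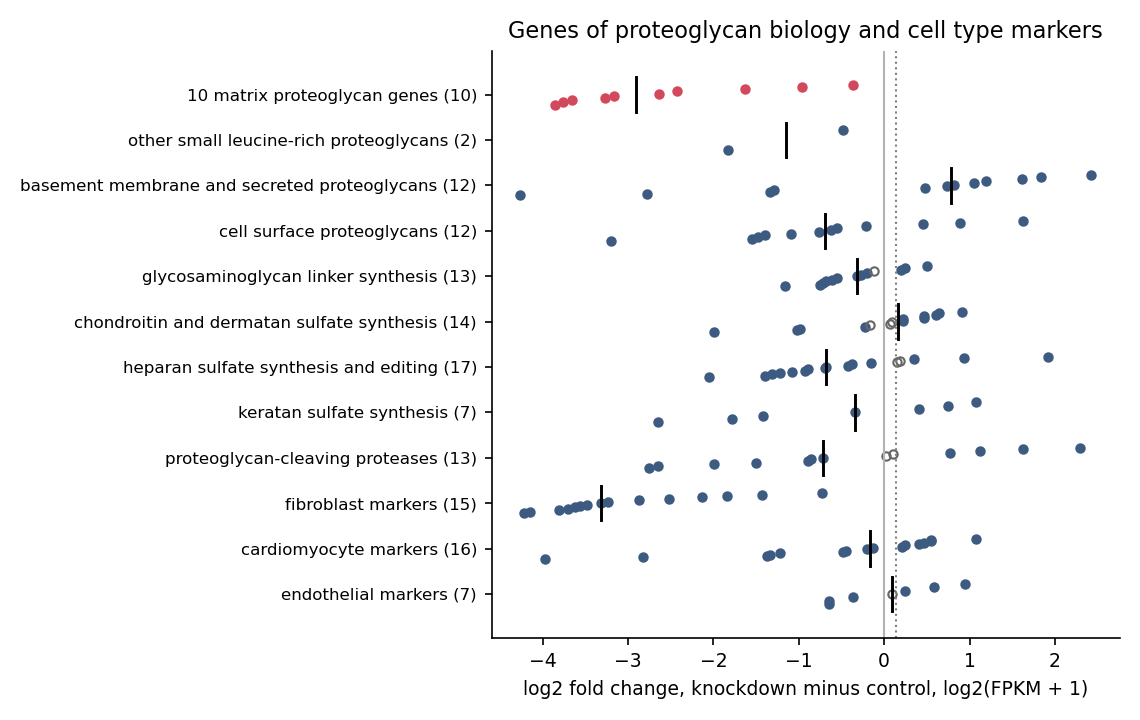
Log2 fold change of each tested gene, knockdown minus control in log2(FPKM + 1), by list, with the number tested in brackets, red or blue filled points for genes past an adjusted p of 0.05, open points for the others and black bars for list medians. The dotted line is the median of all features, 0.14. The 10 proteoglycan genes lie between -3.86 and -0.37 and the fibroblast markers between -4.22 and -0.72, while the lists of chain synthesis lie on both sides of 0.

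For each of the 10 genes the feature nearest to it in level and change was looked up, as the smallest Euclidean distance in log2(FPKM + 1) over the 6 libraries among all features tested other than the 10. The nearest feature to Bgn was the collagen gene Col1a2, at 1986 ± 129 and 178 ± 11.997 FPKM. For Dcn it was Mxra8, at 133 ± 3.99 and 12.02 ± 1.27 FPKM. For Fmod it was Scara5, which encodes a ferritin receptor, and for Prelp the growth factor gene Gdf6, at 25.4 ± 1.36 and 1.24 ± 0.143 FPKM. For Ogn it was the oncostatin M receptor gene Osmr, for Lum Cpq, for Aspn Ccbe1 and for Acan Ngfr. Hspg2 lay nearest to Lasp1, which encodes an actin-binding protein and stood at 108 ± 2.51 and 86.3 ± 1.58 FPKM, and Vcan to Gask1b, at 48.6 ± 0.560 and 26.3 ± 0.548 FPKM. The distances were between 0.194 and 0.472.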

How the data were processed

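The deposited file is a table of FPKM by gene symbol with a column for each of the 6 libraries, per the file headers. Its reads had passed through fastp, HISAT2 and HTSeq, as the submitters' processing notes list them. Versions, genome build and strandedness are not given in the sources used. Library depth and reads per gene were worked out from the whole-number steps of the FPKM, to a tolerance of 0.001 reads, for all 229 genes tried, and cover counting error only. FPKM were used as deposited. limma 3.58.1 (eBayes with trend) in R 4.3.3 was fitted without covariates, and tested on simulated data. Values were tabulated and plotted in Python 3.11.15 with matplotlib 3.10.9. No count model was run on FPKM. The 10 genes, the other gene lists and their markers were chosen with earlier results of these data known. Named from each list are up to 4 genes with the smallest adjusted p, and the rarer direction where it held 3 genes or fewer. Cell type marker lists are given mainly by counts. Also looked up were the cluster neighbours Omd, Epyc, Optc and Kera, and Lox, Nppa and Col2a1. The other untested leucine-rich genes, the untested endothelial markers and the lower smooth muscle and pericyte markers were looked up too. So were the untested link protein and hyaluronan-binding genes, the untested cartilage and valve matrix genes, Hs6st2 and Myl7. No protein sequences were used here. Pearson's r over features was 0.996 to 0.997 within groups and 0.871 to 0.876 between them. Alternatives were the scaling, the pseudocount, the filter, a replicate block and leaving out each library.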

Additional observations from a re-analysis of the deposited data

How the results depend on the processing

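All 10 genes stayed lower, with an adjusted p under 0.05 in limma, in each alternative that tested them: median-ratio scaling, quantile normalization, pseudocounts of 0.1 and 0.5, no filter, the replicate block, and each library left out in turn. A minimum mean of 5 FPKM left 8 of the 10 in the test. Hspg2 was the nearest to the threshold, at log2 fold changes of -0.55 to -0.31 and adjusted p up to 0.00394. Over all features 5797 were higher and 3881 lower as deposited (59.9% higher among the calls), 4649 and 4905 after median-ratio scaling (48.7%), and 4988 and 4567 after quantile normalization (52.2%). The corresponding medians over all features were 0.14, -0.02 and 0.03 (log2), so small changes are to be read against that offset. With the replicate block 5750 were higher and 3824 lower, and it changed no call among the 10 genes. Same-numbered libraries did not deviate together (r of -0.003, 0.068 and -0.071 over features), so no pairing by number was seen. With 3 libraries per group this does not exclude one. The lists of linker, chondroitin sulfate, cardiomyocyte, endothelial, smooth muscle and leukocyte genes changed their counts with the scaling. Values of Aspn and Acan in the knockdown are limited by depth.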
